A study of Mus musculus with 6 samples.

Results

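The epithelial state of the mouse prostate was described through 10 genes, 9 keratins and the transcription factor p63 (Trp63), chosen by gene symbol from the 18697 genes of the count table. Of these, 5 mark basal epithelium (Krt5, Krt14, Krt15, Krt17 and Trp63) and 5 mark luminal or intermediate epithelium (Krt4, Krt7, Krt8, Krt18 and Krt19). All 10 passed the filter on low counts. The tissue came from mice with experimental autoimmune prostatitis, a model in which mice develop an inflamed prostate through autoimmunity, so both groups carried the disease and no healthy prostate was compared. One group was given VUF11207, an agonist of the chemokine receptor CXCR7 (Ackr3), injected intraperitoneally at 5 mg per kg daily for 14 days, and the second an equal amount of the solvent DMSO. Each group held 3 libraries of bulk prostate RNA. They were VUF11207 replicates 1, 2 and 3, then a DMSO library and DMSO replicates 2 and 3. The number in the column name of that first DMSO library, 2, matches no sample title, and by elimination it would be DMSO replicate 1. It is called the unnumbered DMSO library, since no replicate number was assigned to it. Values are given in that order throughout. The sources used here give no strain, age or prostate lobe. They also do not tie libraries to mice, so the p-values reflect only how these libraries spread, which may be technical.

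Keratins are the intermediate filament proteins of epithelial cells, and each filament pairs a type II with a type I chain. In the prostate, basal cells rest on the basement membrane, carry keratins 5 and 14 and depend on p63. Luminal cells secrete into the duct and carry keratins 8 and 18. Keratins 4, 7 and 19 are found in intermediate cells and in luminal cells near the urethra. Basal cells are the smaller share of a normal gland, and inflammation is known to shift the balance between both layers.

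Libraries held 20308018 to 33368058 counts. The 8 listed genes of the seminal vesicle, an accessory gland, took 3.11% to 27.8% of the counts with VUF11207 and 0.695% to 63.3% with DMSO, the highest share being that of DMSO replicate 2. Levels are therefore given as CPM, read counts per 1e+06 counts after TMM scaling, which lowers the weight of such genes. The prostate gene Pbsn, which encodes the secretory protein probasin, was detected in all 6 libraries and ranged from 623 to 6739 CPM with VUF11207 and from 681 to 17695 CPM with DMSO, a wide spread within both groups. It does not stand for all prostate genes. In the unnumbered DMSO library, where Pbsn was highest, the summed level of 7 listed prostate genes was lowest. The epithelial genes Epcam and Cdh1 varied much less, Epcam from 276 to 365 CPM with VUF11207 and from 242 to 327 CPM with DMSO. In such bulk samples fewer cells of a type and less RNA per cell cannot be told apart.

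The keratin message of these libraries was mostly luminal. To compare genes, CPM were divided by the length in kilobases of the longest coding transcript with a consensus coding sequence in GENCODE (RPKM). Over the 6 libraries Krt18 stood first with 443 RPKM ± 43.2 (SD, n = 6), followed by Krt19 with 205 ± 61.2 and Krt8 with 162 ± 36.4. The range of Krt18 did not overlap that of Krt19, while the ranges of Krt19 and Krt8 overlapped although Krt19 was above Krt8 in 6 of 6 libraries. Then came Krt15 at 16.9 ± 8.82 RPKM, and its range lay wholly below that of Krt8. Krt5 had 8.93 ± 3.06, Krt7 had 4.22 ± 2.47, Krt14 had 4.02 ± 2.64 and Krt4 had 3.44 ± 2.87 RPKM. Trp63 at 1.33 ± 0.41 and Krt17 at 0.833 ± 0.366 RPKM came last. Among the genes from Krt15 downward the ranges of neighbours in this order overlapped, and Krt7, Krt14 and Krt4 changed places between libraries. The Trp63 level depends on the length taken, since its coding transcripts run from 1729 to 5366 bases and the counts do not separate them. The level and place of Krt7 also depend on its annotated length of 4094 bases. The other type II keratins have 2197 (Krt5), 2133 (Krt4) and 1958 bases (Krt8).

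As shares of the length-scaled counts of the 9 keratins, which no library scaling touches, Krt8, Krt18 and Krt19 together took 93.5%, 97.3% and 94.6% with VUF11207, against 97.3%, 96.3% and 94.2% with DMSO. The basal keratins Krt5, Krt14, Krt15 and Krt17 together took 5.11%, 2.38% and 4.15% with VUF11207, against 2.36%, 3.30% and 4.18% with DMSO. These groups overlapped, with means of 3.88% ± 1.38 and 3.28% ± 0.909 (SD, n = 3 each). Krt15, a type I keratin of basal and progenitor cells, was the most abundant basal keratin in 5 of 6 libraries and not in DMSO replicate 2, where Krt5 was ahead at 1.30% against 0.952%. Type II keratins reached only 0.338, 0.215 and 0.274 times the type I level with VUF11207, against 0.187, 0.312 and 0.272 times with DMSO, Krt18 and Krt19 both being of type I.

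**Figure D1:**
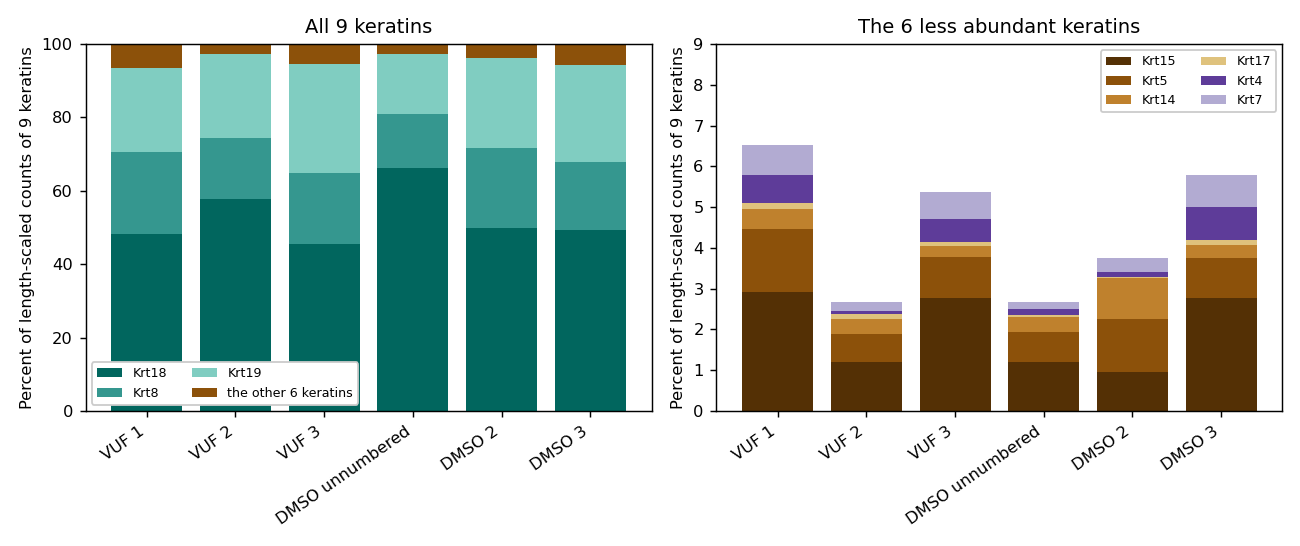
Share of each keratin in the length-scaled counts of the 9 keratins, in percent, for each library, with all keratins on the left and the 6 less abundant ones on an enlarged axis on the right. Krt8, Krt18 and Krt19 hold 93.5% to 97.3% in the VUF11207 libraries and 94.2% to 97.3% in the DMSO libraries, and the small remainder is lowest in VUF11207 replicate 2 and the unnumbered DMSO library.

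None of the 10 genes passed for a difference between VUF11207 and DMSO in edgeR's quasi-likelihood test, in which 0% of 13753 genes passed a Benjamini-Hochberg adjusted p of 0.05. At an unadjusted p under 0.05 there were 0 of the 10 genes, against 1.43% of all genes. For none of the 10 did the groups stay apart, while they did for 5.57% of all genes, 3.05% with VUF11207 higher and 2.52% with VUF11207 lower. The log2 fold change (VUF11207 over DMSO) was positive for 7 of the 10, against 44.7% of all genes, with a median of 0.09 over the basal and 0.19 over the luminal and intermediate genes, beside -0.04 over all genes tested. The smallest unadjusted p among the 10 was 0.197 for Krt17.

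**Figure D2:**
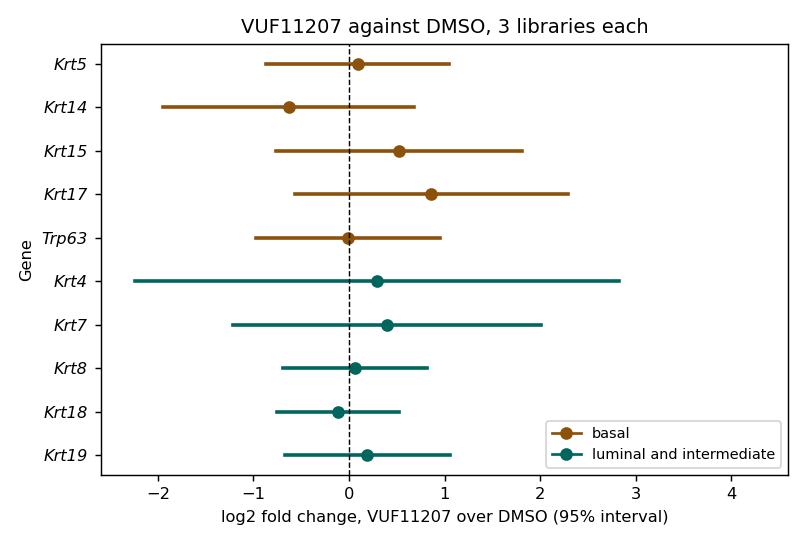
Log2 fold change of each gene, VUF11207 over DMSO, with its 95% interval from edgeR (3 libraries each), for basal genes above and luminal and intermediate genes below. Every interval crosses 0, and the intervals run from the narrow one of Krt18 (-0.75 to 0.52) to the wide one of Krt4 (-2.24 to 2.83).

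Krt5, the type II keratin that defines basal cells, was at 26.5, 11.2 and 22.9 CPM with VUF11207, against 12.3, 26.2 and 18.6 CPM with DMSO. Both groups held a high and a low library and overlapped throughout. Its log2 fold change was 0.09 ± 0.40 (SE), with a 95% interval from -0.87 to 1.05 on the log2 scale. That is a fold of 0.547 to 2.07, and these values are compatible with any fold in that range. The sign rested on single libraries, with -0.13 without VUF11207 replicate 1, -0.0091 without VUF11207 replicate 3 and -0.14 without the unnumbered DMSO library.

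Trp63 encodes p63, the transcription factor that maintains basal epithelium, and was at 9.91, 4.40 and 7.03 CPM with VUF11207, against 4.74, 8.88 and 7.85 CPM with DMSO. The lowest library of each group was the same as for Krt5. Its fold change on the log2 scale was -0.0070 ± 0.40 (SE), with a 95% interval from -0.97 to 0.96. It turned positive without VUF11207 replicate 2 (0.25), VUF11207 replicate 3 (0.0017), DMSO replicate 2 (0.18) or DMSO replicate 3 (0.072).

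Krt14, the type I partner of keratin 5, was at 6.53, 4.83 and 4.63 CPM with VUF11207, against 4.51, 15.9 and 4.56 CPM with DMSO. DMSO replicate 2 stood above all other libraries, and the other 5 lay close together. The log2 fold change was -0.63 ± 0.55 (SE), and 0.24 without that library. DMSO replicate 2 also had the highest seminal vesicle share, at 63.3% of counts, and their relation was not tested. The ratio of Krt5 to Krt14 per length was 3.14, 1.80 and 3.82 with VUF11207, against 2.10, 1.28 and 3.15 with DMSO.

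Krt15 was at 38.6, 15.5 and 47.7 CPM with VUF11207, against 15.7, 14.9 and 40.2 CPM with DMSO. VUF11207 replicate 2, the unnumbered DMSO library and DMSO replicate 2 were low and the other 3 libraries high, so both levels occurred in both groups. Its fold change on the log2 scale was 0.52 ± 0.54 (SE), and 1.16 without DMSO replicate 3 or 0.20 without VUF11207 replicate 3.

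Krt17, a type I keratin induced in stressed or injured epithelium, was the scarcest keratin of the 10 genes, with 60, 46 and 43 counts under VUF11207 and 23, 6 and 45 counts under DMSO. That gave 2.03, 1.54 and 1.45 CPM with VUF11207, against 0.851, 0.423 and 1.45 CPM with DMSO. DMSO replicate 3 equalled the lowest VUF11207 library, so the groups met. The log2 fold change of 0.86 ± 0.60 (SE) was the largest of the 10, its 95% interval ran from -0.57 to 2.29, and it was 0.54 without DMSO replicate 2 and 1.38 without DMSO replicate 3.

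**Figure D3:**
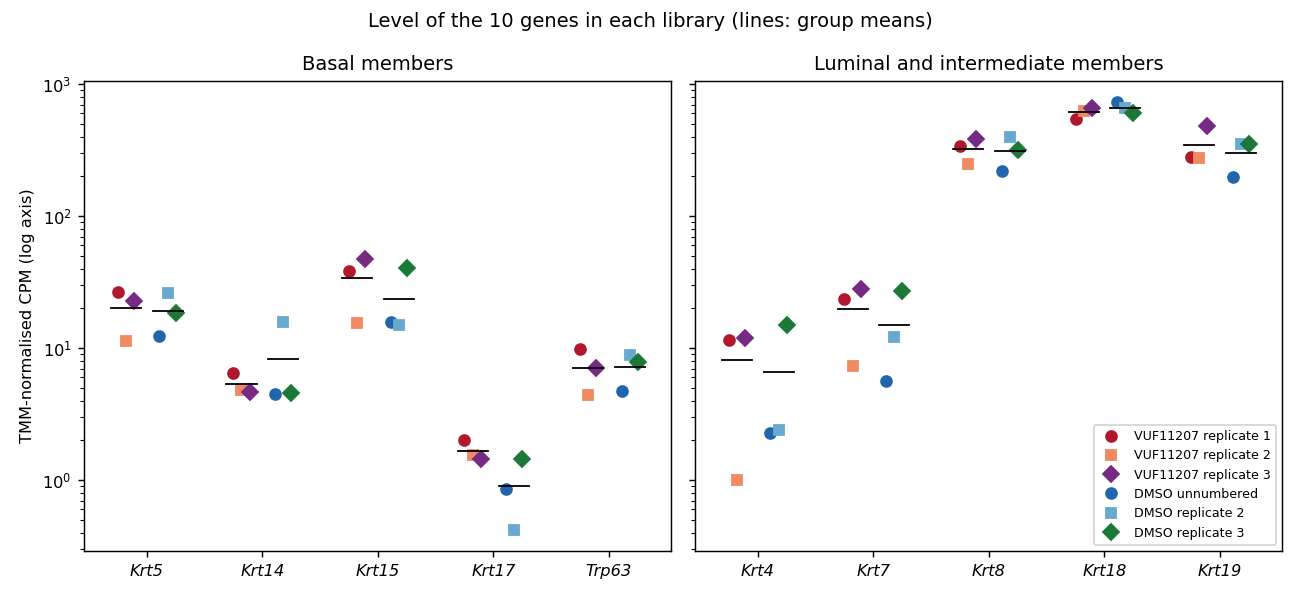
TMM-normalised CPM on a log axis for the 10 genes, with VUF11207 libraries on the left and DMSO libraries on the right of each gene, points for libraries and lines for group means. Krt18 stays between 542 and 663 CPM with VUF11207 and between 604 and 727 CPM with DMSO, while Krt4 spans 1.01 to 11.9 CPM and 2.26 to 15.1 CPM.

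Among the luminal genes, Krt18 was the steadiest of the 10. This type I luminal keratin was at 542, 629 and 663 CPM with VUF11207, against 727, 657 and 604 CPM with DMSO, a range of 1.34-fold over all libraries. Its log2 fold change was -0.12 ± 0.27 (SE). Krt8, its type II partner, was at 341, 248 and 383 CPM with VUF11207, against 220, 396 and 314 CPM with DMSO. The log2 fold change of Krt8 was 0.06 ± 0.32 (SE), with a 95% interval from -0.69 to 0.82, and it turned to -0.0728 without VUF11207 replicate 3 and to -0.13 without the unnumbered DMSO library. Per length, Krt8 reached 0.461, 0.290 and 0.424 times the level of Krt18 with VUF11207, against 0.222, 0.443 and 0.381 times with DMSO, so the message of the partners was unequal in every library. Krt19, the type I keratin without a tail domain, was at 281, 274 and 479 CPM with VUF11207, against 197, 355 and 354 CPM with DMSO. For Krt19 the log2 fold change was 0.19 ± 0.36 (SE), with -0.12 without VUF11207 replicate 3 and -0.0368 without the unnumbered DMSO library.

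Krt4 and Krt7, type II keratins of intermediate and urethra-near luminal cells, varied most. Krt4 was at 11.4, 1.01 and 11.9 CPM with VUF11207, against 2.26, 2.40 and 15.1 CPM with DMSO. Libraries of the same group thus differed by 11.8-fold with VUF11207 and 6.69-fold with DMSO, and over all 6 libraries by 15.0-fold, beside a median range of 2.02-fold for the 11775 tested genes whose average log2 CPM was 1 or more. The log2 fold change of Krt4 was 0.29 ± 1.06 (SE), with a 95% interval from -2.24 to 2.83. It was 1.81 without DMSO replicate 3 and turned negative without VUF11207 replicate 1 (-0.0137), VUF11207 replicate 3 (-0.0863), the unnumbered DMSO library (-0.12) or DMSO replicate 2 (-0.0897). Krt7 was at 23.4, 7.35 and 28.2 CPM with VUF11207, against 5.62, 12.1 and 27.0 CPM with DMSO. For Krt7 the log2 fold change was 0.40 ± 0.68 (SE), with 0.0054 without the unnumbered DMSO library or 1.16 without DMSO replicate 3.

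The balance of both states was taken as the mean log2 CPM of the 5 basal genes minus that of the 5 luminal and intermediate genes. It was -3.32, -3.15 and -3.90 with VUF11207, against -3.34, -3.32 and -3.86 with DMSO. The group means of -3.45 ± 0.39 and -3.51 ± 0.31 (SD, n = 3 each) differed by 0.05, less than the spread within either group. The lowest balance in each group was that of replicate 3, the library with the highest Krt4 and Krt7 of its group.

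The levels split the libraries in another way than by treatment. In VUF11207 replicate 2 and the unnumbered DMSO library, 6 of the 10 genes (Krt4, Krt5, Krt7, Krt8, Krt19 and Trp63) were both below all other 4 libraries, a pattern noticed after the values were seen and shared by 17.7% of all genes tested. These same libraries had the highest levels of smooth muscle genes. Relative to the mean of 6 libraries in log2 CPM, that list of 9 genes was at 0.26, 1.22 and -0.97 with VUF11207, against 0.90, -0.71 and -0.70 with DMSO. The T cell list, with 7 of 8 genes tested, was at -0.55, 0.95 and -0.63 with VUF11207, against 1.14, -0.96 and 0.05 with DMSO. Its summed level stayed low, from 5.98 to 22.2 CPM with VUF11207 and from 5.64 to 19.5 CPM with DMSO.

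By their mean log2 level, general epithelial genes were also lowest in these libraries. The list of 16, among them Epcam and Cdh1, was at -0.04, -0.22 and 0.32 with VUF11207, against -0.30, 0.12 and 0.12 with DMSO. By summed level this did not hold, with 2690, 2731 and 3540 CPM with VUF11207, against 2838, 3167 and 3021 CPM with DMSO. Single genes also differed. Epcam was lowest in DMSO replicate 2 (242 CPM), and Ehf was highest in VUF11207 replicate 2 (418 CPM) and the unnumbered DMSO library (592 CPM). Set against the mean log2 level of that list, Krt5 was at -2.17, -3.21 and -2.74 with VUF11207, against -3.01, -2.33 and -2.83 with DMSO. The lowest values of Krt5 thus stayed in VUF11207 replicate 2 and the unnumbered DMSO library. Krt8 on this scale was at 1.51, 1.24 and 1.32 with VUF11207, against 1.15, 1.58 and 1.24 with DMSO, and VUF11207 replicate 2 was then level with DMSO replicate 3. The part of muscle, immune and epithelial content in the keratin levels was not tested.

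**Figure D4:**
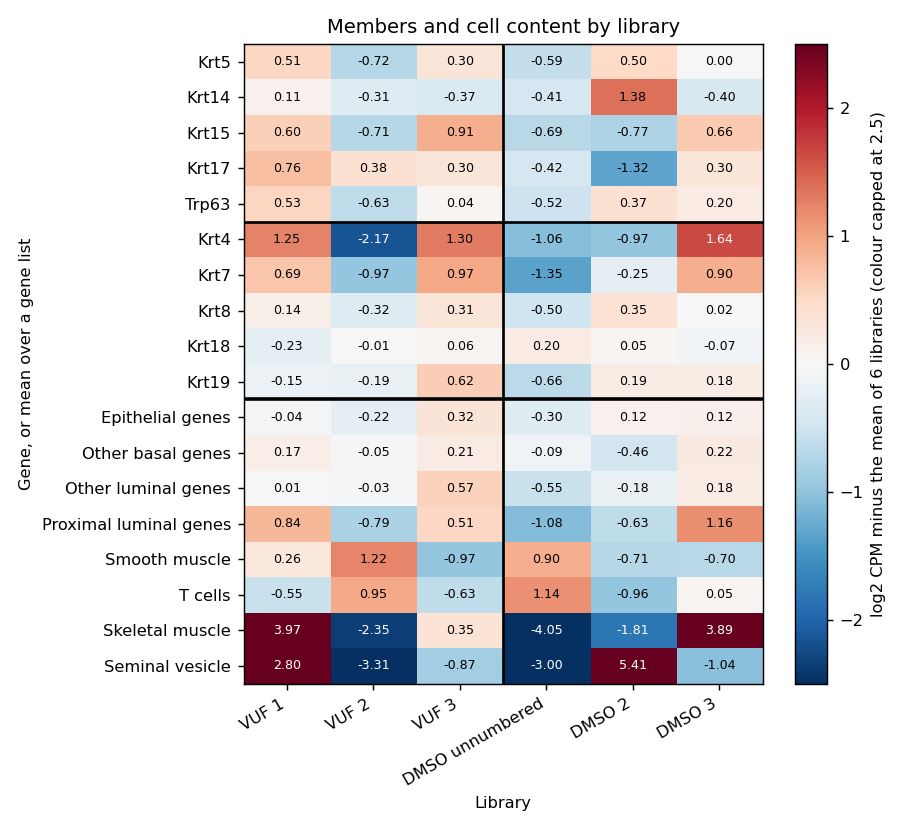
Centred log2 CPM (0 is the average library) of each gene (basal genes, then luminal and intermediate genes) and, below the thick line, the same averaged over gene lists, with VUF11207 libraries left of DMSO libraries. Krt4 and Krt7 are low in VUF11207 replicate 2 (smooth muscle 1.22) and the unnumbered DMSO library (0.90), where T cell genes are also high. Krt4 is low in DMSO replicate 2 as well (-0.97), where smooth muscle is at -0.71, T cell genes at -0.96 and seminal vesicle genes at 5.41. The relation of these levels to Krt4 was not tested.

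Keratins 5 and 8 lie among 27 keratin genes on chromosome 15 in mm10 (GENCODE M21), with Krt5 at chr15:101707070-101712898, Krt4 at chr15:101918535-101924735, Krt7 at chr15:101411043-101430313 and Krt8 at chr15:101996698-102004482. Krt18, a type I gene, stands apart from the type I cluster and beside Krt8, at chr15:102028180-102032027, with 23697 bases and 0 annotated genes between. The other type I genes lie on chromosome 11, with Krt15 at chr11:100131758-100135928, Krt19 at chr11:100140810-100148665, Krt14 at chr11:100203162-100207548 and Krt17 at chr11:100256217-100261029. Trp63 is at chr16:25683763-25892102. All 10 are annotated as protein coding.

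Promoter windows of RefSeq (build GRCm38.p6, 250 bases before to 50 after the gene start) were matched by symbol for 5 of the 10 genes, Krt5, Krt7, Krt8, Krt14 and Krt18. Those of Krt5, a basal gene set beside Trp63 in the relations, and of the neighbours Krt8 and Krt18, a keratin pair, are shown 5′ to 3′. Capitals mark CACCTG, an E-box, on either strand, and in Krt5 also a p53 family element. The windows are chr15:101712856-101713155 (minus strand) for Krt5, chr15:102004293-102004592 (minus strand) for Krt8 and chr15:102027966-102028265 (plus strand) for Krt18.
Krt5: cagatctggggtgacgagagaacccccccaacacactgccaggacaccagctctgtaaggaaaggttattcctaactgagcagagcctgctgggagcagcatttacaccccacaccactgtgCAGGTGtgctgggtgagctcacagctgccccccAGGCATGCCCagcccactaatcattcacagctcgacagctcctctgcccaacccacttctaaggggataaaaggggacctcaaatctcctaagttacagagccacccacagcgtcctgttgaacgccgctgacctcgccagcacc
Krt8: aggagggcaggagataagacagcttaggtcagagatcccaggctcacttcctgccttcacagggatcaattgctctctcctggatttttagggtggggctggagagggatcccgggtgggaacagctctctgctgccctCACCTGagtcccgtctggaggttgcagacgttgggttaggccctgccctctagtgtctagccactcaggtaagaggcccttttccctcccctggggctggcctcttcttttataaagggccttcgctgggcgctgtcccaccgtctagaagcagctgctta
Krt18: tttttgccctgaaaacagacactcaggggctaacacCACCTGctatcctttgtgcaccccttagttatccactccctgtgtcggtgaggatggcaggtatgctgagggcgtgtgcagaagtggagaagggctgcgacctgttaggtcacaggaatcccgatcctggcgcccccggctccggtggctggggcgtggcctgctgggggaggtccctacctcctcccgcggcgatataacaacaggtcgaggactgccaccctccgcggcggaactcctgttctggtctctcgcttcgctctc

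The p53 family element, a single copy of the repeat to which p63 can bind, started 95 bases before the Krt5 start and matched in 1 of the 5 windows, against 8.37% of 27025 promoters. CACCTG matched in 4 of the 5 (Krt5, Krt7, Krt8 and Krt18), against 20.03% of promoters. Of the other motifs searched on both strands, TATAAA matched in 1 window (14.2% of promoters), GCCNNNGGC in 2 (16.5%), GGGCGG in 1 (35.9%) and TGANTCA in 0 (7.93%), and matches of GCCNNNGGC and GGGCGG overlapped in Krt7. The Krt7 and Krt14 windows lie wholly inside the genes as GENCODE draws them, and that of Krt8 in part. The matches in Krt7, and the CACCTG and TATAAA matches in Krt8, are therefore not upstream of the GENCODE starts. A match describes letters and does not show binding.

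Across the 6 libraries Trp63 and Krt5 went together, with a Pearson r of 0.956 (exact permutation p = 0.0194, adjusted p = 0.0972) and a Spearman rho of 0.943 (exact permutation p = 0.0167, adjusted p = 0.0833), two-sided and adjusted over 5 relations. The relation missed the threshold after adjustment. Without the 2 libraries farthest from the median of Krt5, VUF11207 replicate 2 and the unnumbered DMSO library, r was 0.627 over 4 libraries, so its strength rests in part on them. Per length, Trp63 stood at 15.3%, 16.0% and 12.6% of the Krt5 level with VUF11207, against 15.8%, 13.9% and 17.3% with DMSO.

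The partners Krt8 and Krt18 did not go together, with r = -0.362 (exact permutation p = 0.508, adjusted p = 0.508) and rho = -0.143 (exact permutation p = 0.803, adjusted p = 0.803). Krt18 was highest in the unnumbered DMSO library, where Krt8 was lowest, and without that library and VUF11207 replicate 2 r was 0.676 over 4 libraries. For Krt7 and Krt19, r was 0.773 (exact permutation p = 0.0667, adjusted p = 0.167) and rho 0.829 (exact permutation p = 0.0583, adjusted p = 0.146), and r was 0.241 without the same 2 libraries. Krt5 and Krt14 had r = 0.575 (exact permutation p = 0.108, adjusted p = 0.181) and rho = 0.600 (exact permutation p = 0.242, adjusted p = 0.403), with r at 0.660 without the 2. Krt5 and Krt15 had r = 0.518 (exact permutation p = 0.347, adjusted p = 0.434) and rho = 0.143 (exact permutation p = 0.803, adjusted p = 0.803), and r turned to -0.477. None of the 5 relations passed after adjustment.

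**Figure D5:**
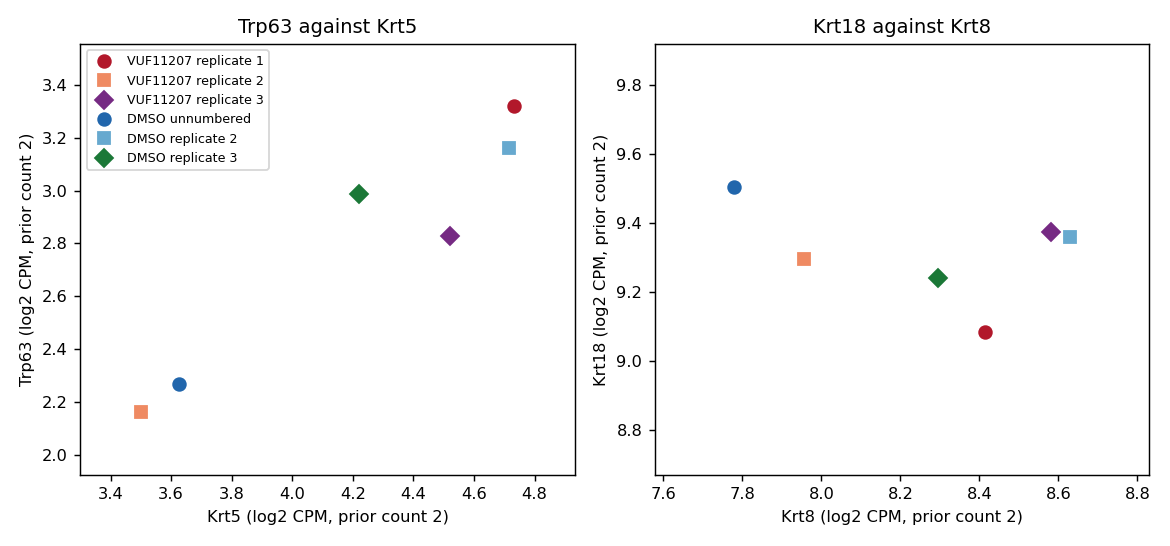
Log2 CPM of Trp63 against Krt5 on the left and of Krt18 against Krt8 on the right, a point for each library, with equal spans on both axes of a panel. Trp63 is higher where Krt5 is higher (r = 0.956), with VUF11207 replicate 2 and the unnumbered DMSO library at the low end, while Krt18 varies little beside Krt8.

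Other genes of both layers were taken from lists of textbook markers. Of 22 further basal genes, 19 were tested and 0 passed in either direction, 15 were positive, and their median log2 fold change was 0.21. Among them Itga3, an integrin chain that binds the basement membrane, was at -0.54 ± 0.27 (log2 fold change, SE). The nerve growth factor receptor gene Ngfr, a basal marker, was at 1.24 ± 0.99. The basal list had centred log2 levels of 0.17, -0.05 and 0.21 with VUF11207, against -0.09, -0.46 and 0.22 with DMSO.

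Of 12 further luminal genes, all were tested, 0 passed, 7 were positive and the median was 0.06. Hoxb13, a homeobox factor of the prostate, was at 384, 533 and 805 CPM with VUF11207, against 378, 182 and 348 CPM with DMSO. These groups did not overlap, though the lowest VUF11207 and highest DMSO library were close, and its log2 fold change was 0.92 ± 0.41 (SE). The peptidase gene Dpp4 was at -0.83 ± 0.49 and the transporter gene Slc45a3 at 0.68 ± 0.42 (log2 fold change, SE). Of 8 genes of luminal cells near the urethra, 0 passed, 5 were positive and the median was 0.25. That list had centred log2 levels of 0.84, -0.79 and 0.51 with VUF11207, against -1.08, -0.63 and 1.16 with DMSO, on this scale high in the same libraries as Krt4. Its summed level was 1684, 381 and 353 CPM with VUF11207, against 152, 957 and 3067 CPM with DMSO. By that sum VUF11207 replicate 3, where Krt4 was high, was not among the high libraries.

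Of 10 desmosome genes, which anchor keratin filaments at cell contacts, 8 were tested, 0 passed, 5 were positive and the median was 0.10. The desmosomal cadherin Dsc2 was at -1.10 ± 0.62 (log2 fold change, SE). Of 15 genes related to p63 or regulated by it, 14 were tested, 0 passed, 10 were positive and the median was 0.11. Cdkn1a, the cell cycle inhibitor p21, was at 15.8, 13.3 and 25.2 CPM with VUF11207, against 6.03, 6.76 and 10.9 CPM with DMSO. Every VUF11207 library was above every DMSO library, and the log2 fold change was 1.19 ± 0.35 (SE). Its unadjusted edgeR p was 0.0123 and its adjusted p 0.9999, so it did not pass. Of 14 genes of cornified epithelium, 9 were found and 3 tested, 0 passed and 2 were positive. Tgm1, a transglutaminase of that layer, was at 3.48, 2.32 and 4.57 CPM with VUF11207, against 1.55, 1.06 and 1.87 CPM with DMSO. Its log2 fold change was 1.20 ± 0.47 (SE), with an adjusted edgeR p of 0.9999. Sbsn was at -0.42 ± 0.70 and Sprr1a at 1.07 ± 1.81 (log2 fold change, SE). Sprr1a had 0 CPM in VUF11207 replicate 2, the unnumbered DMSO library and DMSO replicate 2.

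Keratins 7, 8, 18 and 19 also occur in urothelium and mesothelium. Of 6 urothelial genes, 3 were tested and 0 passed, and Upk2 was at 7.78, 0.671 and 3.69 CPM with VUF11207, against 0.666, 23.0 and 2.71 CPM with DMSO. Of the markers of other tissues, smooth muscle genes had 9 of 9 positive, skeletal muscle genes 7 of 9, T cell genes 2 of 7 and seminal vesicle genes 0 of 8, and 0 passed in any of these lists. Genes of a list can vary together, so these are not counts of independent results. The seminal vesicle list had centred log2 levels of 2.80, -3.31 and -0.87 with VUF11207, against -3.00, 5.41 and -1.04 with DMSO, a wide spread within both groups. Prostate secretory and lineage genes had 4 of 7 positive and 0 passed. Their summed level was 82710, 108110 and 190710 CPM with VUF11207, against 40713, 69231 and 77743 CPM with DMSO, without overlap. For 2 of the 7 the groups did not overlap, against 5.57% of all genes. Of these, Msmb was at 472, 887 and 2986 CPM with VUF11207, against 40.6, 284 and 361 CPM with DMSO. Its log2 fold change was 2.66 ± 0.99 (SE), with an adjusted edgeR p of 0.9999. The summed level of the urothelial list ran from 129 to 430 CPM with VUF11207 and from 58.0 to 236 CPM with DMSO. Upk1a was at 161, 96.4 and 412 CPM with VUF11207, against 9.95, 125 and 221 CPM with DMSO. Upk1b went the other way, at 8.93, 30.9 and 13.7 CPM with VUF11207, against 44.6, 18.7 and 11.8 CPM with DMSO. It was highest in VUF11207 replicate 2 and the unnumbered DMSO library, where Upk2 and Upk1a were lowest. Krt20, the keratin of mature urothelium, had at most 2 counts in any library. Of 5 mesothelial genes, 1 was tested, and their summed level ran from 1.42 to 6.14 CPM with VUF11207 and from 0.905 to 10.7 CPM with DMSO. Neuroendocrine genes, with 2 of 6 tested, summed to 1.35 to 3.36 CPM with VUF11207 and to 1.20 to 6.51 CPM with DMSO. The part of these cells and of seminal vesicle in the keratin levels was not tested. The seminal vesicle list took up to 27.8% of counts with VUF11207 and up to 63.3% with DMSO.

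Reads of near-identical genes can be miscounted. Of all 75-base windows in the transcripts of each gene, 23.5% of Krt8 also occurred in other genes (2, among them the pseudogene Krt8-ps), 7.77% of Krt5 in Krt6a and relatives, and 5.71% of Krt14 in Krt16. The values of these keratins are uncertain to that extent. Krt6a had at most 2 counts in any library and Krt16 had 0. For Krt4, Krt15, Krt17, Krt18, Krt19 and Trp63 the share was 0%.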

How the data were processed

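Bulk RNA of 6 prostate libraries was sequenced, 3 per group. Per the labels' protocols, TRIzol and a VAHTS Universal kit were used. The submitters' processing notes name fastp, HISAT2, HTSeq and mm10. Their versions, the annotation, the strand setting and the handling of multiply matching reads were not given in the sources used here. The authors deposited raw gene counts as whole numbers. No row lacked a gene name, and 5 single-library files were identical to the table. A DMSO column whose number matches no sample title was assigned to its group only.

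Counts were scaled by TMM, filtered with filterByExpr (13753 of 18697 genes kept) and tested with edgeR 4.0.16 (quasi-likelihood, robust, two-sided, Benjamini-Hochberg over all genes, threshold 0.05). SE came from the fold change and F statistic. Log2 CPM used a prior count of 2. An exact test of 3 against 3 libraries cannot go below 0.1, so none is given. Relations between genes used exact permutations (scipy 1.17.1). A planned relation of Krt4 with Krt13 was left out, Krt13 having at most 4 counts. Positions and lengths came from GENCODE M21. The test was tried on simulated data.

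The 10 genes, the lists and the tests were chosen with earlier results of these data known. The genes named are the 10 themselves, up to 3 genes of smallest p from each list (some are not reported here), the 5 most alike in profile, and markers of cell content, while Pbsn, Krt6a, Krt16 and the genes called only by an alternative were chosen after their values were seen. Alternatives were DESeq2 1.42.0, limma 3.58.1 voom, other scalings and filters, a replicate block, and leaving out libraries or the 50 most abundant genes. The analysis ran in R 4.3.3 and Python 3.11.15.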

Additional observations from a re-analysis of the deposited data

How the results depend on the processing

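No alternative brought any of the 10 genes past the threshold. Their adjusted p was 0.928 or more under every alternative run, and none of their directions is established. Over all genes, DESeq2 called 4 higher (Apof, Dcaf12l1, Scgb2b4-ps and Tox3) and scaling by library totals called 3 higher (Scgb2b12, Scgb2b7 and Wfdc3), against 0 with edgeR and TMM, which had 196 genes at an unadjusted p under 0.05. The median over all genes was 0.144 with library totals, against -0.04 with TMM, and there Krt18 was at 0.068 and Trp63 at 0.25, both of the other sign than with TMM.

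VUF11207 and DMSO libraries with the same number in their column names did not deviate together (r of -0.59 for VUF11207 replicate 1 with the unnumbered DMSO library, -0.33 for replicates 2 and 0.05 for replicates 3), and VUF11207 replicate 2 was most like the unnumbered DMSO library (r = 0.68). In the replicate block, the unnumbered DMSO library and VUF11207 replicate 1 each had a level of their own. Its fold changes therefore rest only on replicates 2 and 3 of both groups. With that block 0 genes passed. The log2 fold changes were -0.45 for Krt5, -0.76 for Krt4, -0.32 for Krt7, -0.19 for Krt8 and 0.036 for Krt18, so these 5 changed sign. A block by column number, chosen after seeing the data, changed no sign.

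Trp63, near 0, was also positive with limma voom (0.0070), without a low count filter (0.0056), without the 50 most abundant genes (0.0203) and, chosen after seeing the data, without the unnumbered DMSO library and VUF11207 replicate 2 (0.0192). Without DMSO replicate 2 and VUF11207 replicate 1 together, Krt14 was at 0.083 and Krt4 at -0.41. With 1 library left out in turn, log2 fold changes ran from -0.93 to 0.24 for Krt14, -0.12 to 1.81 for Krt4, -0.14 to 0.40 for Krt5, -0.13 to 0.29 for Krt8, -0.12 to 0.34 for Krt19 and -0.30 to 0.25 for Trp63. The cause of these changes was not tested. Under every alternative the difference in balance moved from 0.05 by less than 0.35, the pooled SD of the full balance within groups. It ran from -0.29 without Krt15 and Krt17 to 0.27 without VUF11207 replicate 3, so its sign was not fixed. It was also negative without VUF11207 replicate 1 (-0.017), VUF11207 replicate 2 (-0.10) or DMSO replicate 3 (-0.13). The spread of a balance with fewer genes was not compared. The lowest count of Krt17 was 6, in DMSO replicate 2.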

Other observations

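Of 38 further keratin genes in the table, 14 had 0 counts in all 6 libraries and 28 had at most 5 counts in any library. Only 5 were tested (Krt10, Krt23, Krt39, Krt78 and Krt80), and 0 passed. Krt23, a type I keratin, was the most abundant of these, at 17.3, 20.6 and 27.3 CPM with VUF11207, against 17.0, 8.52 and 16.1 CPM with DMSO. Its groups did not overlap, though the nearest libraries were 17.3 and 17.0 CPM, and its log2 fold change was 0.64 ± 0.33 (SE). Krt10, a keratin of stratified epithelium, was at 0.67 ± 0.50 and Krt39 at 1.22 ± 0.72 (log2 fold change, SE). Krt13, the usual partner of keratin 4, had 2, 0 and 2 counts with VUF11207, against 0, 0 and 4 counts with DMSO, although Krt4 reached 467 counts in DMSO replicate 3.

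The genes most like the mean profile of the 5 basal genes over the 6 libraries, among 11553 genes averaging a log2 CPM of 1 or more, were Arhgap35 (Pearson r = 0.992), Ppme1 (0.986), Mtmr10 (0.986), Cds1 (0.986) and Dhx30 (0.985). For the luminal and intermediate genes they were Scnn1a (0.997), a subunit of the epithelial sodium channel, Frmd8 (0.995), Sec16a (0.990), Creb3l4 (0.989) and Gigyf2 (0.987). In all, 270 genes had an r above 0.9 with the basal and 262 with the luminal profile. The luminal profile gives most weight to genes that vary widely, such as Krt4, whose centred log2 levels ran from -2.17 to 1.65. Krt18, the most abundant, did not follow it, at -0.23, -0.01 and 0.06 with VUF11207, against 0.20, 0.05 and -0.07 with DMSO. Scnn1a was at 7.34, 3.46 and 8.89 CPM with VUF11207, against 3.59, 4.86 and 8.43 CPM with DMSO. These correlations only describe the libraries.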
